A study of Mus musculus with 79 samples.

Results

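Pyramidal neurons, the excitatory projection cells of the cortex, were compared between mice that lived through 5 weeks of unpredictable chronic mild stress (UCMS) and unstressed control mice. The comparison used every library labelled pyramidal, 20 of the 79 libraries of the study, 10 from UCMS and 10 from control mice, with 1 library per mouse. All mice were male C57Bl/6J animals with no genetic change given in the labels, which do not state their age. The UCMS mice met 1 to 4 mild stressors a day, such as predator odor, restraint, a tilted cage or wet bedding, and were kept singly, while control mice were kept in groups with littermates, so stress and single housing cannot be told apart. Each library held 130 cells, cut by laser from frozen sections of medial prefrontal cortex after an RNAscope probe had marked the cell type, and was made from total RNA with a stranded kit for very small inputs. The other 59 libraries came from parvalbumin (PV), somatostatin (SST) and VIP interneurons of the same mice. They are used only where the pyramidal difference is set against them.

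Pyramidal neurons of the medial prefrontal cortex release glutamate and carry its output to other cortical areas and to deep structures that set stress responses. Long stress in rodents is known to shorten their dendrites and thin out their spines, the small protrusions that receive excitatory input. The stress hormone corticosterone reaches these cells through glucocorticoid and mineralocorticoid receptors, which act on transcription. Gene by gene, the question here was which transcripts stood higher or lower in the UCMS than in the control libraries, and whether members of a pathway or family moved together.

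The values are normalized counts, reads per gene divided by the authors' size factor for each library. The pyramidal libraries held 6148744 to 13529571 reads on genes and detected 12256 to 18697 genes. Library U607 of the UCMS arm had both the fewest reads and the most genes detected. Slc17a7, the vesicular glutamate transporter that marks these cells, had 10372, 12927 and 14522 normalized counts (lowest, median and highest of 10) in UCMS and 11362, 14327 and 16661 in control pyramidal libraries, against medians of 2616 to 4700 in the interneuron groups. Gad1, an enzyme of GABA synthesis, had medians of 102 in UCMS and 163 in control pyramidal libraries, against 3132 to 9926 in the interneuron groups, so both markers stood as the label gives. Camk2a, another pyramidal marker, did not set these libraries apart from VIP libraries. Its medians were 10924 in UCMS and 10006 in control pyramidal libraries. They were 5554 to 6808 in the PV and SST groups, and 12016 in UCMS and 12148 in control VIP libraries. Fewer cells of a type and less RNA per cell cannot be told apart in such pools.

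Of 16092 genes with a mean of at least 10 normalized counts, 13 passed an adjusted p of 0.05 (limma on log2(normalized count + 4), Benjamini-Hochberg), 0.0808% of those tested. Atp11b rose and 12 genes fell in UCMS neurons: Bsn, Lars2, Zfpm2 and 9 gene models of small nuclear RNA. At an unadjusted p under 0.05 there were 1023 genes, 6.36% of those tested, with 725 higher in UCMS (4.51%) and 298 lower (1.85%). In 0 of the 16092 genes (0.0%) did the 10 UCMS libraries lie apart from the 10 control libraries without overlap. The calls were shifts of overlapping groups.

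The count of 13 rests on how the spread was estimated. For 14671 of the 16092 genes (91.2%) limma took the spread expected at a gene's level in place of the gene's own spread between mice. With each gene's own spread 1 gene passed, which was none of the 13, and 977 genes had an unadjusted p under 0.05. That gene, named after its values were seen, was Hexim2, whose product binds the 7SK RNA and holds back transcript elongation, with 12.9, 29.2 and 79.9 normalized counts in UCMS and 0, 0 and 21.3 in control libraries (log2 fold change 2.49, own-spread SE 0.37, adjusted p = 0.0370). Without limma's robust option 21 passed, 6 of them among the 13. The count was 0 with edgeR (682 at an unadjusted p under 0.05) and 39 with DESeq2 on the recovered reads, 2 of them among the 13. Leaving out 1 library gave 2 to 14, with 2 without control library U3, control library U6 or UCMS library U601 and 5 without control library U9. For the named calls below, the SE from the gene's own spread and an unadjusted p from permuting the 20 libraries are therefore given beside limma's values.

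The median log2 fold change of all tested genes was 0.10, and it depended on level. With the genes cut by mean level into 4 groups of 4023, the median from the lowest to the highest group was 0.27, 0.26, 0.10 and 0.01, and 184, 215, 188 and 138 genes were higher at an unadjusted p under 0.05, against 24, 60, 94 and 120 lower. Genes with low counts thus leaned upward in UCMS libraries, which also tended to detect more genes, with 12615, 16187 and 18697 in UCMS and 12256, 14012 and 14894 in control libraries (permutation test, adjusted p = 0.0662 over 15 library measures). With the number of genes detected as a covariate the median of all genes was -0.0018. For some lists below, the average median of the level groups that their members come from is given as well. A list median given without it is not set against level.

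**Figure D1:**
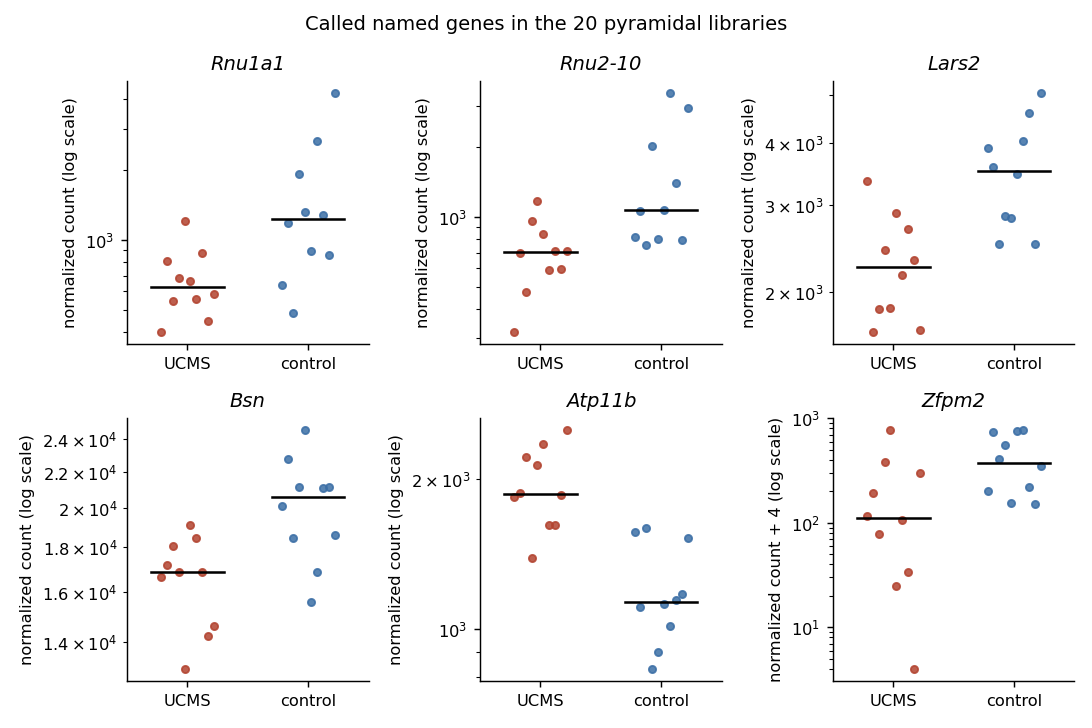
Normalized counts (log scale; Zfpm2 with 4 added) of 6 called genes in the 10 UCMS and 10 control pyramidal libraries, 1 point per mouse, with the median as a line. Rnu1a1, Rnu2-10, Lars2, Bsn and Zfpm2 sit lower and Atp11b higher in UCMS libraries, and the arms overlap in each panel.

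The called small nuclear RNAs belong to 2 kinds. U1 and U2 are RNAs of the spliceosome, the machine that removes introns from messenger RNA: U1 pairs with the start of an intron, U2 with the branch point near its end. Of the 9 called models, 5 are U1 genes and 4 are U2 genes. They are shown because copies of nearly the same sequence carry most of the calls. The sequences are those of the GENCODE M21 transcripts on GRCm38, written as DNA. The capitals mark the bases that pair with the 5′ splice site in U1 and with the branch point in U2. Rnu1a1 lies on the plus strand at chr11:87422867-87423030 and Rnu2-10 on the plus strand at chr11:101658238-101658428.
Rnu1a1: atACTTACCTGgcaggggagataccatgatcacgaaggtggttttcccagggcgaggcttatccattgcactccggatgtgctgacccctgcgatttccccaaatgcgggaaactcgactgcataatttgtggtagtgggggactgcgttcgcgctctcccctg
Rnu2-10: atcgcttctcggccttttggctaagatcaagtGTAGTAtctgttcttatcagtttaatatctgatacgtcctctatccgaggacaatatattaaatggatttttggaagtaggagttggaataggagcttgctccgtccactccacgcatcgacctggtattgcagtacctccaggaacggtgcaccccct

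The U1 models Gm26444, Gm22634, Gm22068 and Gm23804, all called, have the sequence of Rnu1a1 at every base. Gm23849 and Gm24950 have that of Rnu2-10, and the fourth called U2 model, Gm26316, differs from it by C170T, counted from the 5′ end with the base of Rnu2-10 first. Reads from identical copies cannot be assigned to 1 of them, so the 9 calls amount to 2 RNAs and not to 9 independent genes. Gm22317 and Gm25679 also match Rnu1a1 base for base and were lower by similar amounts, with log2 fold changes of -1.05 and -1.04, but did not pass (adjusted p = 0.673 and 0.683), so the line between called and uncalled copies falls among identical sequences.

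Rnu1a1 had 400.4, 625 and 1203 normalized counts (lowest, median and highest) in UCMS and 485, 1229.5 and 4263 in control libraries, and fell by 0.96 on the log2 scale (limma SE 0.20, adjusted p = 0.00766; own-spread SE 0.33, permutation p = 0.00722). All 10 UCMS libraries lay below the control median, and 5 control libraries lay above every UCMS library. Rnu2-10 had 319, 707 and 1166 in UCMS and 754, 1069 and 3406 in control libraries, and fell by 0.94 (limma SE 0.20, adjusted p = 0.00766; own-spread SE 0.30, permutation p = 0.00441), with 9 of 10 UCMS libraries below the control median. Summed over the 11 tested U1-type models the libraries had 6751, 10059 and 22553 counts in UCMS and 7556, 20497 and 73137 in control mice, and over the 10 U2-type models 2057, 3475 and 5401 in UCMS and 3226, 5721 and 16400 in control mice. Both calls were lost when control library U3, U6 or U9 or UCMS library U601 was left out. Over all 20 fits that left out 1 library, the log2 fold change lay between -1.12 and -0.77 for Rnu1a1 and between -1.03 and -0.78 for Rnu2-10. With the number of genes detected as a covariate it was -0.48 for Rnu1a1 and -0.59 for Rnu2-10, and neither was called.

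Other short structured RNAs leaned the same way without passing. The 9 small nuclear RNA models of neither U1 nor U2 type had a median log2 fold change of -0.95, with 8 lower, and 3 lower and 0 higher at an unadjusted p under 0.05, where the background was 1.85% for lower genes. Of 56 small nucleolar RNA models, which guide the chemical marking of ribosomal RNA, 47 were lower, with a median of -0.56, and 7 were lower and 0 higher at that level. Rmrp, the RNA of the ribonuclease that trims ribosomal RNA, had 846, 974 and 1370 counts in UCMS and 731, 1666 and 2537 in control libraries (log2 fold change -0.49, SE 0.17, p = 0.00497, adjusted p = 0.634). Rpph1, the RNA of ribonuclease P, which matures transfer RNAs, had 14092, 22743 and 37527 in UCMS and 16764, 35040 and 52832 in control libraries (-0.47, SE 0.24, adjusted p = 0.797). The 7SL genes Rn7s1 and Rn7s2, whose RNA helps send proteins into the secretory path, were lower by the same -0.69 (SE 0.29, adjusted p = 0.764 each).

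The 9 tested RNAs of Cajal bodies, which mark spliceosomal RNAs, had a median log2 fold change of -0.05, with 6 lower and 3 higher. Their summed counts were 839.9, 1090.4 and 2764 in UCMS and 789.7, 1450.2 and 3438 in control libraries, with 8 of 10 UCMS libraries below the control median. As a share of reads, a measure unlike the normalized counts above, the RNAs of the mitochondrial ribosome took 7.09% ± 1.32 in UCMS and 7.05% ± 1.00 in control libraries (SD, n = 10 each; permutation p = 0.939). On normalized counts their log2 fold changes were -0.15 for mt-Rnr1 and -0.12 for mt-Rnr2. These structured RNAs, Cajal body and mitochondrial RNAs included, were singled out after their values had been seen.

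**Figure D2:**
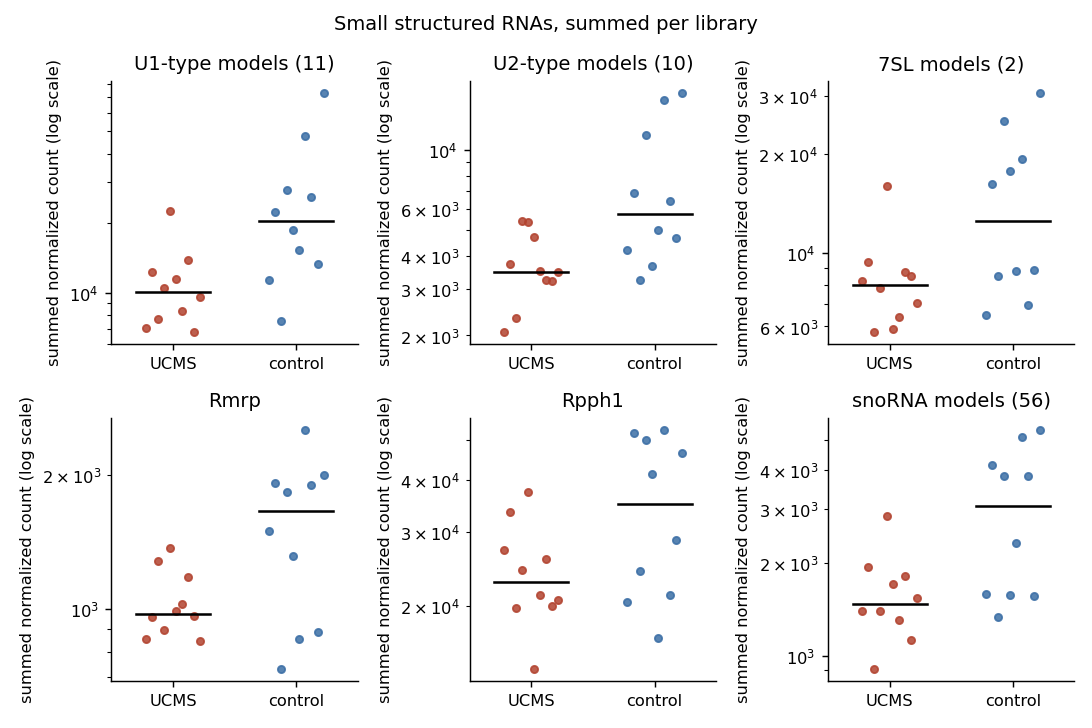
Normalized counts summed per library (log scale) over the tested gene models of 6 kinds of small structured RNA, UCMS left and control right, with the median as a line. In each panel the UCMS median is lower and several control libraries reach above all or most UCMS libraries.

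By count of genes, messages for the proteins that work with these RNAs did not share one direction. Of 34 core proteins of the spliceosomal particles, 17 were higher and 17 lower, with a median of -0.01, where genes of their levels had 0.14. Summed over all 35 such genes, counts were 12848, 14666 and 15738 in UCMS and 13309, 15524 and 17612 in control libraries. On that measure 9 of 10 UCMS libraries lay below the control median. Snrnp70, the protein that binds the first loop of U1, was lower at an unadjusted p (1044, 1431 and 1984 counts in UCMS and 1263, 1865 and 3226 in control libraries; log2 fold change -0.34, SE 0.15, p = 0.0253, adjusted p = 0.764). The 31 genes for the transcription, end processing and assembly of small nuclear RNAs had a median of 0.09, with 17 higher and 14 lower. Genes of their levels had an average median of 0.15. The median of the 31 turned to -0.02 with DESeq2 and to -0.03 without control library U6. At an unadjusted p under 0.05, 5 were higher and 0 lower, where the background was 4.51% for higher and 1.85% for lower genes. They included 4 subunits of the Integrator complex, which cuts the ends of nascent small nuclear RNAs. Ints7 had 347, 505 and 655 counts in UCMS and 68.7, 273 and 413 in control libraries (0.96, SE 0.32, adjusted p = 0.634), with all 10 UCMS libraries above the control median. Ints6, Ints2 and Ints9 had log2 fold changes of 1.24, 1.03 and 1.75.

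Regulators of splice choice and of RNA ends included some of the most extreme genes. Nudt21, a subunit of the cleavage factor that picks the polyadenylation site, had 246, 513 and 622 counts in UCMS and 5.57, 253 and 521 in control libraries (log2 fold change 1.36, SE 0.36, p = 0.000132, adjusted p = 0.152). Among named coding genes read in all 20 libraries and higher in UCMS, its statistic came next after that of Atp11b, and 9 of 10 UCMS libraries exceeded the control median. Of 20 genes of cleavage and polyadenylation, though, it was the only one at an unadjusted p under 0.05, and the median was -0.03. Of 54 SR and hnRNP splicing regulators, 35 were higher, with a median of 0.11. Srsf3 (0.95, p = 0.0140) and Hnrnph1 (0.57, p = 0.0149) were higher and Srsf7 (-0.95, p = 0.00666) was lower at an unadjusted p.

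Lars2 encodes the leucyl-tRNA synthetase of mitochondria, the enzyme that loads leucine onto its transfer RNA there. It had 1659, 2247 and 3350 counts in UCMS and 2501, 3509 and 5037 in control libraries and fell by 0.62 on the log2 scale (limma SE 0.12, adjusted p = 0.00189; own-spread SE 0.16, permutation p = 0.00115), with all 10 UCMS libraries below the control median. It was called in each of the 20 fits that left out 1 library and with DESeq2. It was not called with edgeR, a mean of at least 50, no filter, the gene's own spread or the protein-coding covariate. The fit of all 8 groups of cell type and arm did not call it either. With the protein-coding share as a covariate its log2 fold change was -0.20. The other mitochondrial aminoacyl-tRNA synthetases showed no such lean: over the 17 tested, Lars2 included, 11 were higher, the median was 0.28, and Lars2 was the only one at an unadjusted p under 0.05.

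The level of Lars2 moved with ribosomal RNA across libraries. CT010467.1, an annotated ribosomal RNA model on chromosome 17, had 19819, 28573 and 40234 counts in UCMS and 24259, 41108 and 55922 in control libraries (log2 fold change -0.46, SE 0.16, p = 0.0110, adjusted p = 0.683). Its share of reads was related to Lars2 over the 20 libraries (Pearson r = 0.81, permutation p = 2e-05, adjusted p = 0.00060 over 30 relations; Spearman rho = 0.80, permutation p = 7e-05). Without the 2 libraries farthest from the median share r was 0.74. Within the 10 UCMS libraries r was 0.53 (permutation p = 0.118, adjusted p = 0.295) and within the 10 control libraries 0.93 (permutation p = 0.00011, adjusted p = 0.00165). This model was chosen after the values had been seen. With its share as a covariate Lars2 no longer passed, and 1 gene, Bsn, was called in place of 13.

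Other measures gave other relations. Of 3 models listed here as ribosomal-RNA-like (Gm10925, Mir6236 and Gm26917), Gm10925 is annotated as an unprocessed pseudogene. It had 0.929, 56.1 and 9689 counts in control libraries. Likeness of the 3 models to ribosomal RNA was not tested. The joint share of these 3 models averaged 0.735% of the reads in UCMS and 0.759% in control libraries. It was not related to Lars2 (r = -0.16, permutation p = 0.508, adjusted p = 0.867 over 36 relations). The short models annotated as microRNA, shown further below, were outside this share, and their own share was not set against Lars2. The share on protein-coding genes was related inversely to Lars2 (r = -0.84, permutation p = 1e-05, adjusted p = 0.00036, the first being the smallest that 100000 resamples can give; rho = -0.78, permutation p = 8e-05), with r = -0.75 without the 2 farthest libraries. Within arms r was -0.39 in UCMS (permutation p = 0.282) and -0.91 in control libraries (permutation p = 0.00046). No stretch of 21 bases was shared between the 9 annotated transcripts of Lars2 and any of 160 annotated ribosomal RNA transcripts, in either strand. Models annotated as other types were not searched, so the search cannot speak to sequence shared with those.

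**Figure D3:**
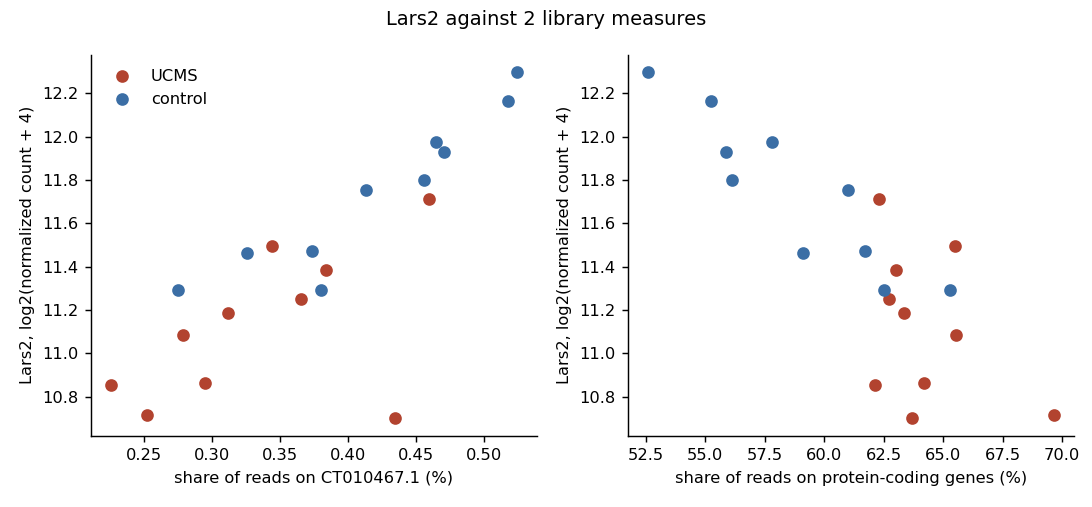
Lars2 in log2(normalized count + 4) against the share of reads on the ribosomal RNA model CT010467.1 (left) and on protein-coding genes (right), 1 point per library. Lars2 climbs with the first share (r = 0.81 over 20 libraries) and declines with the second (r = -0.84). Within arms r for the first share was 0.53 in UCMS and 0.93 in control libraries.

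The make-up of the libraries differed between arms in the same direction. Protein-coding genes took 62.2%, 63.5% and 69.7% of the reads (lowest, median and highest) in UCMS and 52.6%, 58.5% and 65.3% in control libraries (means 64.2% and 58.7%, permutation p = 0.00102, adjusted p = 0.0153 over 15 measures). Gene models annotated as microRNA took 17.9%, 24.4% and 26.7% in UCMS and 20.9%, 28.9% and 34.6% in control libraries (adjusted p = 0.0314). Of the 15 measures only the shares of these 2 classes passed, and the microRNA share missed the threshold in 6 of the 20 tests that left out 1 library (without control library U4, U7, U9 or U10 or UCMS library U606 or U610). Small nuclear RNA took 0.116%, 0.185% and 0.334% in UCMS and 0.140%, 0.283% and 0.864% in control libraries (adjusted p = 0.0590). Scaling to protein-coding reads left the same number of calls, 13, while the protein-coding share as a covariate left 0. The part of composition in the called genes was not tested beyond these fits.

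Most of the microRNA class was 4 short models of almost one sequence, shown here because Gm23935 and Gm24187 are told apart by 1 base. They are given 5′ to 3′ on their own strand from the GENCODE M21 transcripts on GRCm38, with capitals at the base that differs between those 2. Gm23935 lies on the plus strand at chr16:11144125-11144181 and Gm24187 on the minus strand at chr13:9834469-9834525. Gm25911 lies on the minus strand at chr1:167340369-167340424. Gm24270 has the sequence of Gm23935.
Gm23935: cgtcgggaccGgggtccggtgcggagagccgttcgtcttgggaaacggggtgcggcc
Gm24187: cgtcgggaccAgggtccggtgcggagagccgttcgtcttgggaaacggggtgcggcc
Gm25911: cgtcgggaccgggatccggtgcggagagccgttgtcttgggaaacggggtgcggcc

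Gm23935 took 10.8%, 12.7% and 16.1% of the reads in UCMS and 12.7%, 15.7% and 17.5% in control libraries, and Gm25911 took 0.992%, 1.42% and 1.63% in UCMS and 1.26%, 1.65% and 1.76% in control libraries. Both were graded from library to library. Gm24187, which differs from Gm23935 by G11A, was not graded: 3 of 10 UCMS and 7 of 10 control libraries gave it 2.20% to 6.49% of all reads, and the other 10 at most 0.00450%. With its reads left out, the protein-coding share was 65.0% in UCMS and 60.7% in control libraries and the microRNA share 22.6% in UCMS and 26.6% in control libraries (adjusted p = 0.00595 for the first and 0.0152 for the second over 7 added measures, chosen after seeing the data).

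**Figure D4:**
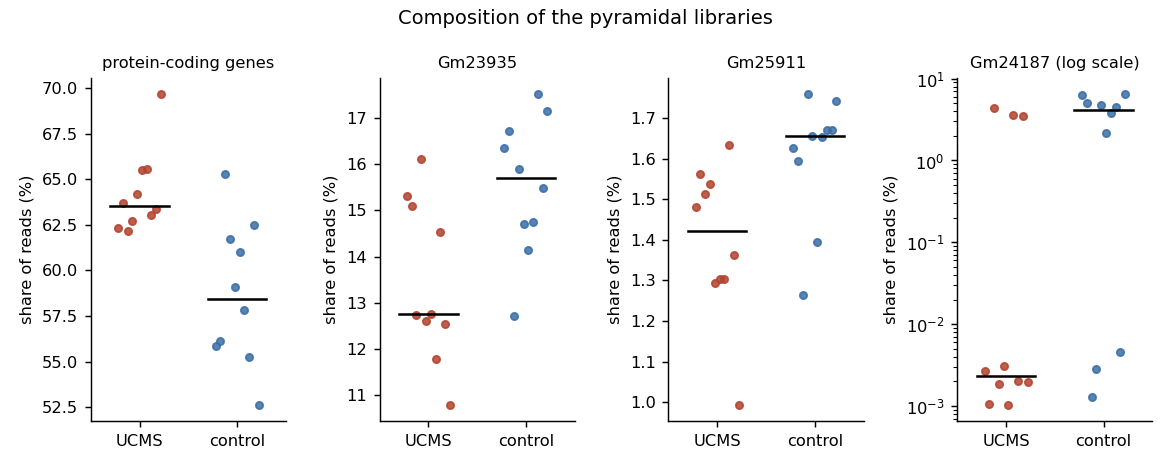
Share of all reads on protein-coding genes and on 3 short models annotated as microRNA genes, in percent, in the 10 UCMS and 10 control pyramidal libraries, with the median as a line. Gm24187, on a log scale, is at 2.20% or more in 3 UCMS and 7 control libraries and at 0.00450% or less in the others.

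At the presynaptic side, Bsn fell. It encodes bassoon, a giant scaffold of the active zone where vesicles are released. It had 13039, 16871 and 19115 normalized counts in UCMS and 15561, 20574 and 24599 in control libraries, and fell by 0.28 on the log2 scale (limma SE 0.05, adjusted p = 0.00182; own-spread SE 0.08, permutation p = 0.00426). Every UCMS library lay below the control median, and the call held in all 20 fits that left out 1 library. Under quantile normalization the log2 fold change was -0.05. The call was lost under edgeR, DESeq2, quantile normalization, the protein-coding covariate, a mean of at least 50 and no filter. It was also lost without limma's robust option (adjusted p = 0.0814) and with the gene's own spread (adjusted p = 0.695). The fit of all 8 groups of cell type and arm did not call it either. The rest of the active zone did not follow. Over 25 scaffold genes the median was -0.04, with 16 lower and 9 higher, and Erc2, a partner of bassoon in that scaffold, was higher at an unadjusted p (1995, 2542 and 3093 in UCMS and 1467, 2096 and 2555 in control libraries; 0.26, SE 0.13, p = 0.0435, adjusted p = 0.767).

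Release and recycling of vesicles showed small opposed differences that did not pass. Cplx1, complexin 1, a clamp on the fusion machinery, had 658, 1140 and 2078 in UCMS and 1049, 1483 and 2560 in control libraries (log2 fold change -0.47, SE 0.17, p = 0.00515, adjusted p = 0.634). Snap25, one of the fusion proteins themselves, was lower too (-0.22, p = 0.00778), while the median of 29 fusion genes was -0.01. Snap91, an assembly protein of clathrin coats, had 1595, 2184 and 2722 in UCMS and 2273, 2757 and 3104 in control libraries (-0.29, p = 0.0219, adjusted p = 0.756), with all 10 UCMS libraries below the control median. Sgip1, another endocytic protein, was higher (0.34, p = 0.0270). The 24 endocytosis genes had a median of -0.02.

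On the postsynaptic side the AMPA receptor, the main fast glutamate receptor, had 2 core subunits higher at an unadjusted p. Gria2, the subunit that keeps calcium out, had 5616, 6618 and 9070 counts in UCMS and 4935, 5560 and 7144 in control libraries (log2 fold change 0.26, SE 0.08, p = 0.00217, adjusted p = 0.634). Gria3 had 2371, 2700 and 4113 in UCMS and 1612, 2170 and 3374 in control libraries (0.30, SE 0.12, p = 0.0173, adjusted p = 0.747). In both genes all 10 UCMS libraries exceeded the control median, and the arms overlapped. Over 19 AMPA receptor and auxiliary genes the median was 0.03, and Shisa6, an auxiliary subunit, was lower (-1.80, p = 0.0331). The 7 NMDA receptor genes had a median of -0.09 (0.03 without UCMS library U609) and none at an unadjusted p under 0.05. Homer1, which links metabotropic glutamate receptors to the density and has a short form made on activity, had 809, 1255 and 1753 in UCMS and 354, 783 and 1519 in control libraries (0.58, SE 0.19, p = 0.00201, adjusted p = 0.634). The median of 36 density scaffolds and kinases was -0.01.

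Ribosomal protein genes, which encode the parts of the cytosolic ribosome, leaned lower as a family. Of 80 tested, 54 were lower and 26 higher, with a median log2 fold change of -0.23, where genes of the same level groups had an average median of 0.07. The median was -0.28 for 31 small-subunit and -0.20 for 48 large-subunit genes. At an unadjusted p under 0.05, 5 were lower (background 1.85%) and 1 was higher (background 4.51%), and 0 passed the adjusted test. Their summed counts were 22967, 29993 and 39899 in UCMS and 31967, 35574 and 40072 in control libraries, with 9 of 10 UCMS libraries below the control median. Rps23 had 604.1, 913 and 1540 in UCMS and 708, 1402 and 2268 in control libraries (-0.56, SE 0.18, p = 0.00234, adjusted p = 0.634). Rps21, Rps3 and Rplp0 had log2 fold changes of -1.31, -0.61 and -0.73.

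By median log2 fold change the other translation genes did not lean with them. The 57 initiation and elongation factors had a median of 0.00, with 29 higher and 28 lower, where genes of their levels had 0.08. Summed over all 59 such genes, counts were 38666, 41480 and 45543 in UCMS and 39408, 43062 and 45320 in control libraries. On that measure 9 of 10 UCMS libraries lay below the control median, as for the ribosomal proteins. The 77 proteins of the mitochondrial ribosome, which is built in the same cells for mitochondrial messages alone, had a median of 0.21, close to the 0.19 of genes at their levels, with 4 higher and 0 lower at an unadjusted p under 0.05, a count near the background of 4.51% for higher genes. That median turned to -0.03 under quantile normalization and to -0.10 with the protein-coding covariate. Their summed counts were 7022, 8310 and 10034 in UCMS and 6860, 8752 and 10725 in control libraries, with 7 of 10 UCMS libraries below the control median. Of these 77 genes, Mrpl50 had a read in all 10 UCMS but 6 control libraries, with medians of 92.9 in UCMS and 33.8 in control mice.

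Energy genes showed no called gene. Messages of the mitochondrial genome took 0.824% ± 0.117 of the reads in UCMS and 0.825% ± 0.107 in control libraries (SD, n = 10 each; permutation p = 0.999). Of the 13 messages, 9 were lower and 4 higher, with a median of -0.08. mt-Co3, a subunit of the oxygen-reducing complex, had 2979, 4330 and 6386 counts in UCMS and 4420, 5425 and 7288 in control libraries (log2 fold change -0.31, SE 0.09, p = 0.00089, adjusted p = 0.519). mt-Nd4, of complex I, was lower by -0.21 (p = 0.0202). The medians of the nuclear genes for complex I, complex IV and ATP synthase were -0.06, -0.01 and -0.02, and 0 of 37 complex I genes had an unadjusted p under 0.05. Among 12 nuclear complex IV genes, Cox5a and Cox7b were lower (-1.24 and -0.77, p = 0.0238 and 0.0316). Glycolysis (18 genes) and the citric acid cycle (19 genes) had medians of 0.00 each.

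At the cell membrane Atp11b rose. Its product is a flippase, a pump that moves phospholipids from one leaflet of a membrane to the other. It had 1386, 1862 and 2507 counts in UCMS and 832, 1131 and 1594 in control libraries, a log2 fold change of 0.70 (limma SE 0.16, adjusted p = 0.0116; own-spread SE 0.13, permutation p = 9e-05). All 10 UCMS libraries exceeded the control median, and 9 exceeded every control library. The call was lost in 6 of the 20 fits that left out 1 library, with values of 0.65 to 0.76. It held with DESeq2 but was lost with edgeR, a mean of at least 50, no filter and the gene's own spread (adjusted p = 0.288). It was also lost with the protein-coding share, the number of genes detected or the share of CT010467.1 as a covariate. The fit of all 8 groups of cell type and arm did not call it either. Other flippases and scramblases did not follow as a group, with a median of 0.14 over 22 genes. Atp8b2, another flippase, was lower at an unadjusted p (-0.38, p = 0.0458).

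Transporters and channels held several of the more extreme uncalled genes. Slc4a7, a sodium bicarbonate cotransporter, had 109.9, 325 and 529 in UCMS and 2.45, 124 and 390 in control libraries (log2 fold change 1.76, SE 0.48, p = 0.000264, adjusted p = 0.250). Slc30a1, which exports zinc, had medians of 272 in UCMS and 142 in control libraries (1.52, p = 0.00157). Atp2b1, a calcium pump of the plasma membrane, had 5169, 5974 and 6565 in UCMS and 3776, 5167 and 5746 in control libraries (0.25, SE 0.09, p = 0.00469, adjusted p = 0.634). Kcnj6, a potassium channel opened by G proteins, was higher by 0.66 (p = 0.0124), with all 10 UCMS libraries above the control median. By family, the median was 0.14 over 13 sodium channel genes, 10 of them higher, where genes of their levels had 0.05. It was 0.21 over the 32 inward rectifier, two-pore, calcium-activated and HCN channel genes that include Kcnj6, where genes of their levels had 0.14. Of these 32 genes, 3 were higher and 1 lower at an unadjusted p under 0.05, against 4.51% and 1.85% of all genes. The median was -0.02 over 16 calcium channel genes and 0.01 over 42 voltage-gated potassium channel genes.

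Adhesion and guidance genes went in both directions. The clustered protocadherins, cell-surface labels by which neurons tell their own branches from those of others, had the highest median of all 75 lists, 0.44 over 52 genes, with 35 higher and 17 lower. At an unadjusted p under 0.05, 5 were higher and 0 lower, against 4.51% and 1.85% of all genes, and genes of their levels had an average median of 0.24. With the number of genes detected as a covariate the median of the 52 was 0.05. The alpha, beta and gamma clusters had medians of 0.33, 0.54 and 0.45. These are low transcripts that share their last exons within the alpha and gamma clusters: Pcdhgc4, the most extreme, had 26.5, 100.1 and 373 in UCMS and 0, 23.5 and 109.9 in control libraries (1.91, SE 0.79, p = 0.0156, adjusted p = 0.733) and was read in 10 UCMS and 7 control libraries. Sema7a, a membrane-bound semaphorin, was lower (-0.94, p = 0.00407), as was Ephb6, an ephrin receptor without kinase activity (-0.44, p = 0.00666). With 1 library left out, the value of Ephb6 nearest 0 was -0.20. The median of 60 guidance genes was 0.04.

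Transport and signalling genes gave a few more. Kif5c and Kif5b, heavy chains of the kinesin motor that carries cargo along axons and dendrites, were both higher. Kif5c had 4554, 6009 and 7751 in UCMS and 3482, 5117 and 6022 in control libraries (log2 fold change 0.24, SE 0.09, p = 0.00588, adjusted p = 0.634), and Kif5b had a log2 fold change of 0.61 (p = 0.00665). Clasp2, which steadies the ends of microtubules, had 1132, 1921 and 2291 in UCMS and 1933, 2362 and 2855 in control libraries (-0.40, SE 0.14, p = 0.00355, adjusted p = 0.634), so that all 10 UCMS libraries lay below the control median. Efr3a, which anchors a lipid kinase at the plasma membrane, had 287, 754 and 1091 in UCMS and 532, 1189 and 1983 in control libraries (-0.72, SE 0.20, p = 0.000369, adjusted p = 0.304). Adcy1, a calcium-stimulated adenylyl cyclase, and Rasgrp1, an exchange factor for Ras, were lower by -0.22 and -0.27 (p = 0.00371 and 0.00379). With 1 library left out, their values nearest 0 were -0.13 for Adcy1 and -0.14 for Rasgrp1. The median of 40 genes of CREB, MAPK and cyclic AMP signalling was -0.04.

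The corticosteroid pathway showed no called gene. Nr3c1, the glucocorticoid receptor, had 352, 617 and 840 counts in UCMS and 382, 492 and 866 in control libraries (log2 fold change 0.13, SE 0.25, adjusted p = 0.963). Nr3c2, the mineralocorticoid receptor, had 110.8, 224 and 454 in UCMS and 108, 284 and 693 in control libraries (-0.15, SE 0.38, adjusted p = 0.974). Both ranges overlapped almost wholly. Fkbp5, a chaperone of the receptor that the hormone induces, had a log2 fold change of -0.30 (SE 0.67), and Sgk1, a kinase induced by it, one of 0.45 (SE 0.55). The SEs leave room for changes of either sign. Of 22 genes known to respond to glucocorticoids, 1 had an unadjusted p under 0.05, against 6.36% of all genes. Among the 22, 10 were higher and 12 lower, with a median of -0.03. That median turned to 0.08 without control library U10, 0.15 without UCMS library U602 and 0.17 without UCMS library U608. Crhr1, a receptor for corticotropin-releasing hormone, had a log2 fold change of -0.14 (SE 0.51) and Bdnf, a neurotrophin, one of 0.07 (SE 0.51).

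Genes switched on within minutes of activity leaned higher: 23 of 31 were above 0, with a median of 0.24 where genes of their levels had 0.13. At an unadjusted p under 0.05, 2 of the 31 were higher and 0 lower, where the background was 4.51% for higher genes, so that this count was near the background. Homer1 was one, and Dusp5, a phosphatase of MAP kinases, was the other (2.04, p = 0.0154, read in 8 UCMS and 3 control libraries). Arc had 301, 531 and 1408 in UCMS and 161, 405 and 1545 in control libraries (0.51, SE 0.27, p = 0.0605). Fos had medians of 54.8 in UCMS and 13.6 in control libraries, and Egr1 medians of 1088 in UCMS and 828 in control libraries (0.14, SE 0.20, p = 0.483). Of 24 clock genes, 3 were higher and 1 was lower at that level, against 4.51% and 1.85% of all genes. Cry1, a repressor of the clock, had 38.9, 116 and 225 in UCMS and 0, 43.8 and 156 in control libraries (2.09, SE 0.75, p = 0.00548, adjusted p = 0.634), Nr1d2 was higher by 0.66 (p = 0.0113) and Hlf lower by -0.50 (p = 0.0229). The labels give no time of day of collection.

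**Figure D5:**
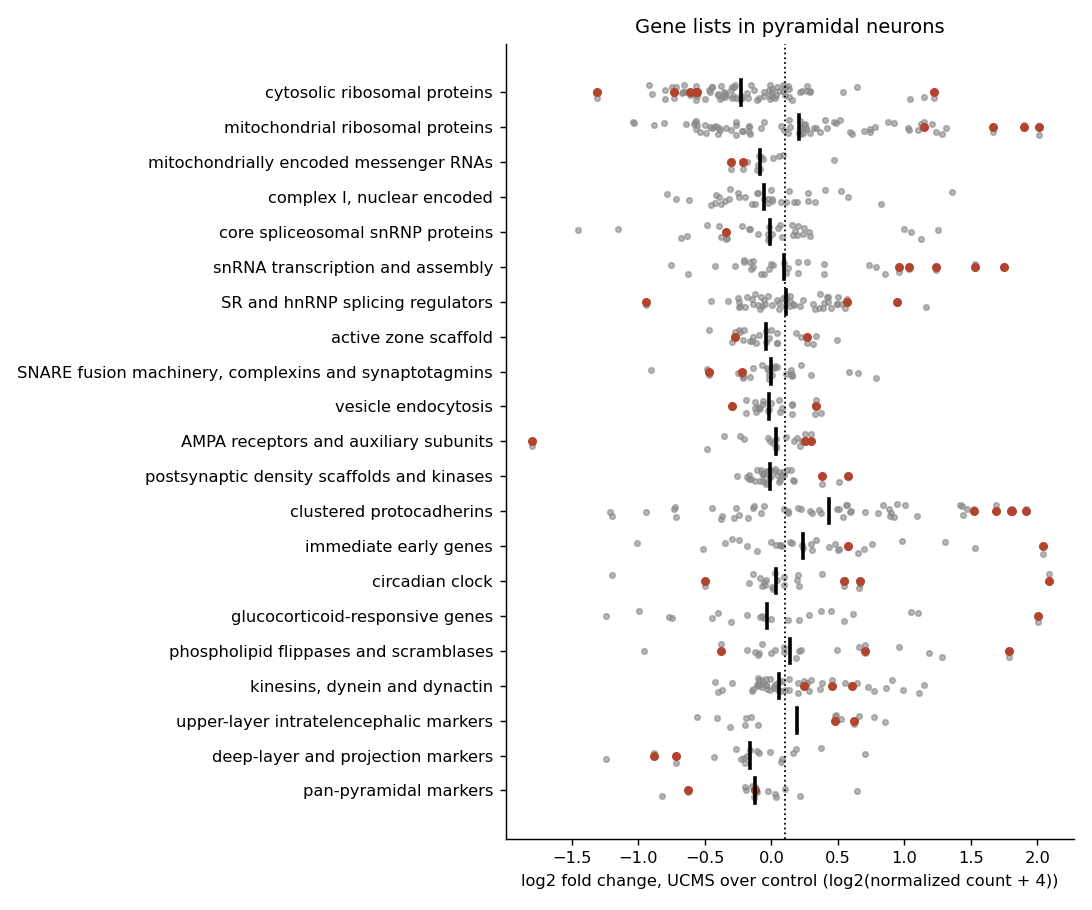
Log2 fold changes, UCMS over control, of the members of 21 gene lists in pyramidal neurons. Grey points are genes, red points those at an unadjusted p under 0.05, black bars list medians and the dotted line the median of all 16092 genes (0.10). Cytosolic ribosomal proteins sit left of it with a median of -0.23 and clustered protocadherins right of it with 0.44.

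Zfpm2, a cofactor of GATA transcription factors, fell. It had 0, 107 and 765 normalized counts in UCMS and 148, 373 and 775 in control libraries, a log2 fold change of -1.93 (limma SE 0.45, adjusted p = 0.0245; own-spread SE 0.76, permutation p = 0.0154). In all, 1 UCMS library had 0 reads of it, and 2 of 10 UCMS libraries exceeded the control median. The call was lost in 11 of the 20 fits that left out 1 library, with values between -2.27 and -1.43, and its log2 fold change was -1.11 with edgeR and -1.13 with DESeq2. Among other regulators of transcription, Lmo3, a LIM-domain cofactor, had 91.6, 427 and 1774 in UCMS and 0.929, 201 and 407 in control libraries (1.56, SE 0.44, p = 0.000519, adjusted p = 0.388), and H3f3b, which encodes the histone H3.3, was lower by -0.91 (p = 0.00353). The 345 zinc finger genes had a median of 0.18, that of genes at their levels. Zfp266 was the most extreme of them, with 66.8, 275 and 486 in UCMS and 0, 59.1 and 180.4 in control libraries (2.25, SE 0.61, p = 0.000223, adjusted p = 0.233).

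Among markers of cortical layers no gene passed. Of 14 upper-layer markers 7 were higher and 7 lower, with a median of 0.19 that turned to -0.10 with the number of genes detected as a covariate. Among them, Rasgrf2 had 373, 941 and 1703 in UCMS and 212, 645 and 1391 in control libraries (log2 fold change 0.62, SE 0.22, p = 0.00430, adjusted p = 0.634), and Cux2, a transcription factor of upper layers, was higher by 0.48 (p = 0.0208). Among 19 deep-layer markers, 13 were lower, with a median of -0.16 that turned to 0.10 without UCMS library U609. Fezf2, the factor that directs the fate of corticospinal neurons, had 13.1, 275 and 505 in UCMS and 157, 433 and 749 in control libraries (-0.88, SE 0.36, p = 0.0133, adjusted p = 0.717), and Tle4, of layer 6 neurons, was lower by -0.72 (p = 0.0424). Summed over all 15 upper-layer and 23 deep-layer markers in the table, counts were 4519, 5320 and 7306 in UCMS and 3553, 4708 and 7021 in control libraries for upper layers, and 3766, 6202 and 7946 in UCMS and 5747, 7056 and 8204 in control libraries for deep layers. Their part in the gene differences was not tested. Of 15 markers common to pyramidal neurons 10 were lower, with a median of -0.12, where genes of their levels had 0.04. Summed over all 16 such markers in the table, counts were 39897, 42915 and 44732 in UCMS and 38059, 44755 and 47830 in control libraries. All 10 UCMS libraries lay below the control median of that sum. Slc17a7 itself was lower by -0.13 (SE 0.06, p = 0.0341, adjusted p = 0.764) and Neurod2 by -0.62 (p = 0.0157).

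Summed markers of other cells overlapped between the arms. Summed astrocyte markers (17 genes) had 9489, 12127 and 15179 counts in UCMS and 8628, 12740 and 16152 in control libraries. Oligodendrocyte markers (19) had 1919, 2834 and 3532 in UCMS and 1789, 2798 and 6022 in control libraries, microglia markers (15) 232, 615 and 899.9 in UCMS and 287, 546 and 1655 in control libraries, and GABAergic markers (22) 852, 1411 and 2282 in UCMS and 1209, 1734 and 2386 in control libraries. None of these 4 lists, and not the endothelial one, had a member at 0 in all 20 libraries, and their shares of reads did not pass (permutation test, adjusted p = 0.922 each).

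Finally, the pyramidal stress difference was set against that of the interneurons. The contrast took the pyramidal difference minus the mean of the PV, SST and VIP differences, with the mouse as a block over all 79 libraries. Of 17427 genes, 0 passed (0.0%; limma), and 575 had an unadjusted p under 0.05 (3.3%), and 0 passed with the mouse as a random block or with no block. None of the 13 called genes was therefore shown to be particular to pyramidal neurons. Bsn had log2 fold changes of -0.28 in pyramidal, -0.01 in PV, -0.04 in SST and 0.05 in VIP neurons (difference -0.28, SE 0.10, p = 0.00544, adjusted p = 0.9996). Lars2 had -0.62 in pyramidal, -0.09 in PV, -0.25 in SST and -0.16 in VIP neurons (difference -0.46, SE 0.18, p = 0.0102). Rnu1a1 had -0.96 in pyramidal, 0.40 in PV, -0.33 in SST and -0.55 in VIP neurons (difference -0.80, SE 0.36, p = 0.0255). For Rnu2-10 the values were -0.94 in pyramidal, 0.20 in PV, -0.78 in SST and -0.91 in VIP neurons (difference -0.43, SE 0.30, p = 0.150). Atp11b had 0.70 in pyramidal, 0.38 in PV, 0.01 in SST and 0.47 in VIP neurons (difference 0.42, SE 0.23, p = 0.0670). Zfpm2 had -1.93 in pyramidal, 1.05 in PV, 0.08 in SST and -0.77 in VIP neurons (difference -2.005, SE 0.76, p = 0.00877). The 6 smallest p-values belonged to Pqlc3, Gm27253, Zcchc9, Card19, Hykk and Zfp266. Of these, Gm27253 was read in 6, Card19 in 8 and Hykk in 10 of the 20 pyramidal libraries. Pqlc3 had 0, 0.355 and 45.8 counts in UCMS and 19.6, 65.6 and 189 in control pyramidal libraries, with reads in 5 UCMS and 10 control libraries (pyramidal log2 fold change -2.99; difference between types p = 0.00016, adjusted p = 0.9996).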

How the data were processed

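The authors deposited 1 table of signal values, read counts per gene divided by 1 size factor per library. Per the submitters' processing notes, HISAT2, SAMtools 1.3 and DESeq2 were used with build GRCm38 (mm10). Which counter, annotation and strand setting were used is not stated there or in the labels, so overlapping, antisense and near-identical genes cannot be told apart. In the 20 pyramidal libraries, 99.99% of values above 0 were whole multiples of the smallest (tolerance 0.001), which gave back the reads. Of 38879 identifiers, 38636 matched GENCODE M21.

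Values were tested as log2(normalized count + 4) with limma 3.58.1 (R 4.3.3; trend and robust options, two-sided, Benjamini-Hochberg), for genes with a mean of at least 10 over the 20 pyramidal libraries. The difference from interneurons used all 79 libraries with the mouse as a fixed block, since, per the labels, a number shared by libraries marks 1 mouse. The correlation between libraries of 1 mouse was 0.0104. Library measures and relations used two-sided permutation tests with 100000 resamples. The script was tested on simulated data. edgeR 4.0.16 and DESeq2 1.42.0 were run on the recovered reads. Replicates are single mice of 1 cohort.

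The members and lists were chosen with earlier results of these data known. Named genes were those past the adjusted test, the 12 highest and 12 lowest statistics among named coding genes read in all 20 libraries, up to 4 members per list by size of statistic, a fixed set of stress and marker genes, and the 6 smallest p-values of the difference from interneurons. Other named genes were chosen after their values were seen. Alternatives covered the pseudocount, the filter, scaling, weights, covariates, the estimate of spread and each library left out.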

Additional observations from a re-analysis of the deposited data

Results flagged for a closer look

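Within each arm of 10 libraries, 222 groups of values were searched for a highest or lowest library whose gap to its neighbour, divided by the whole range, exceeded Dixon's 95% critical value. Chance alone gives about 1 such group in 20, and 28 were found. No explanation was tested for any of them.

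UCMS library U609 was the lowest library for 6 genes on the log2 scale: Ephb6 (gap over range 0.820), Rasgrp1 (0.624), Adcy1 (0.621), Fezf2 (0.604), Sgip1 (0.581) and Crhr1 (0.542). UCMS library U605 was the lowest for Cox7b (0.699), H3f3b (0.656), Egr1 (0.654), Gad1 (0.623) and Rasgrf2 (0.503). It was the highest for Rn7s1 (0.519), Rn7s2 (0.5195) and the small nuclear RNA share (0.601), with 0.334% of reads, where the next library had 0.203%.

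UCMS library U606 was the lowest for Fos (0.604) and the only library of its arm with a read of Gm27253 (1). UCMS library U607 was the lowest for total reads (0.565) and for Atp8b2 (0.529), and UCMS library U602 the highest for Rps23 (0.467). UCMS library U610 was the highest for the protein-coding share (0.547) and the long non-coding share (0.613) and the lowest for Gm25911 (0.566).

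In the control arm, library U8 was the highest for Card19 (1) and Hykk (0.936). Control library U10 was the lowest for Nr1d2 (0.745), control library U6 for Lmo3 (0.598) and Nudt21 (0.523), and control library U4 for Slc30a1 (0.469).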

How the results depend on the processing

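Of the 13 called genes none changed sign under 37 alternatives, but their size and number depended on the fit. Log2 fold changes shrank to -0.05 for Bsn under quantile normalization and, under the protein-coding covariate, to -0.20 for Lars2 and -0.40 for Rnu1a1. The number was 12 or 13 with TMM, quantile or protein-coding scaling, array weights, a pseudocount of 16 or the ribosomal-RNA-like covariate, and 7 with a pseudocount of 1. It was 0 with a mean of at least 50, no filter, edgeR, the protein-coding covariate or all 8 groups in 1 fit with the mouse as a random replicate block. It was 39 with DESeq2, 5 with genes detected and 1 with the share of CT010467.1 as covariate, 21 without the robust option and 1 with each gene's own spread (the last 3 chosen after seeing the data). Prior degrees of freedom were infinite for 91.2% of genes and at most 57.1 with a mean of at least 50. The cause of these changes was not tested.

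Leaving out 1 library gave 2 to 14 calls, a protein-coding difference of 4.81 to 6.22 percentage points and a microRNA difference of -6.34 to -4.82. The relation of Rnu1a1 to the protein-coding share fell to r = -0.49 without the 2 farthest libraries. The difference from interneurons gave 0 calls in every alternative run, including no replicate block.

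Log2 fold changes that turned sign under the protein-coding covariate were those of Rmrp (0.041), Gm24270 (0.011), Gm25911 (0.00974), Ints2 (-0.34), Slc17a7 (0.012) and Gm24187 (0.47). Gm25911 (0.22) and Gm26917 (0.22) did so under quantile normalization, Sgk1 (-0.24) with genes detected as covariate and Crhr1 (0.43) without UCMS library U609, its lowest value with 1 library left out being -0.31.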

Other observations

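Gm24187 took at least 1% of the reads in 30 of the 79 libraries, and its share in the others was at most 0.409%, against at least 1.22% in those 30. Among UCMS libraries it was at or above 1% in 3 of 10 pyramidal, 4 of 9 PV, 5 of 10 SST and 2 of 10 VIP libraries. Among control libraries it was so in 7 of 10 pyramidal, 5 of 10 PV, 1 of 10 SST and 3 of 10 VIP libraries. Of the 19 mice with all 4 cell types, 15 had it at that level in 1 to 3 types, 4 in none and 0 in all 4.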
